A study of Arabidopsis thaliana with 24 samples.

Results

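The genes described here were higher in all 3 COP9 signalosome (csn) mutants than in wild type (WT), in darkness and in light alike, while their WT level differed little between light and darkness. They were chosen from the measured values by a rule on group means of log2(signal + 50). A probe set, a group of probes on the array that reads 1 transcript or several similar ones, had to reach a signal of 100 in at least 3 arrays. WT light minus dark had to lie between -0.5 and 0.5, and each csn mutant minus WT had to be at least 1.5 in darkness and in light. Of 22746 probe sets other than controls, 18751 passed the signal floor, 10299 of these met the limit on WT, and 121 also met the limit on the mutants. AT4G14090, an anthocyanin glucosyltransferase, was left out by name, which gave 120 members. Of these, 49 were listed with 1 gene, and 71 were unnamed here. Dropping the limit on WT would have given 207 probe sets.

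Whole seedlings of Arabidopsis thaliana were sampled at an age of 7 days, and their RNA was read on ATH1 expression arrays, with 3 arrays in each of 8 groups. The groups were WT, csn3-1 (csn3 below), csn4-1 (csn4) and csn5 (csn5a-2 csn5b), each grown in light and in darkness. Each csn genotype is 1 mutant line, and the label of the last names alleles of both genes for that subunit. According to the design text the arrays of a group are independent biological replicates.

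The COP9 signalosome is a nuclear protein complex that removes the ubiquitin-like protein NEDD8 from cullins, the scaffolds of cullin-RING ubiquitin ligases, and so controls how these ligases work. It was discovered through Arabidopsis seedlings that look light-grown in darkness, because it acts with COP1 and DET1 to hold back the light programme of gene expression. Loss of the complex also disturbs cell cycle progress, hormone signalling and seedling survival.

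In the values that chose them, the members sat between 1.63 and 6.74 above WT on the log2(signal + 50) scale, as the mean of the 6 differences of a mutant from WT, with a median of 2.40. For 7 members that mean was at least 4, for 27 it lay from 3 to 4, for 65 from 2 to 3, and for 21 it was under 2. The median difference from WT in darkness was 2.48 in csn3, 2.29 in csn4 and 2.30 in csn5, against 0.18, 0.24 and 0.07 over all probe sets tested. In light it was 2.60, 2.46 and 2.42, against 0.15, 0.21 and 0.13. All 120 members had their 9 dark mutant arrays above the 3 dark WT arrays, a pattern seen in 19.8% of all tested probe sets, and all 120 had it in light, against 22.6%. The rule fixed these counts, so they describe the choice and carry no test.

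Members could reach the signal floor through the mutants alone, and the rule itself favours a low WT signal, so the following levels describe the choice. The median of their mean WT signal was 76.2, against 296 over all tested probe sets, and the median of their mean mutant signal was 749, against 310. For 50 members (41.7%) every WT array read under 100, which held for 13.3% of all tested probe sets. With 50 added before the logarithm, the differences of such members understate the ratio of signals. The 3 named members just inside the mutant limit were AT5G59240, AT2G38465 and AT2G25450, with a smallest difference of 1.502, 1.507 and 1.513. Just outside were AT1G30160, AT2G37070 and AT3G20430, at 1.496, 1.494 and 1.484. At the WT limit, AT2G38465 (-0.499), AT1G43910 (0.487) and AT1G65500 (0.448) lay inside, and AT3G20710 (-0.549), AT4G27480 (-0.564) and AT3G51660 (-0.571) outside.

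**Figure D1:**
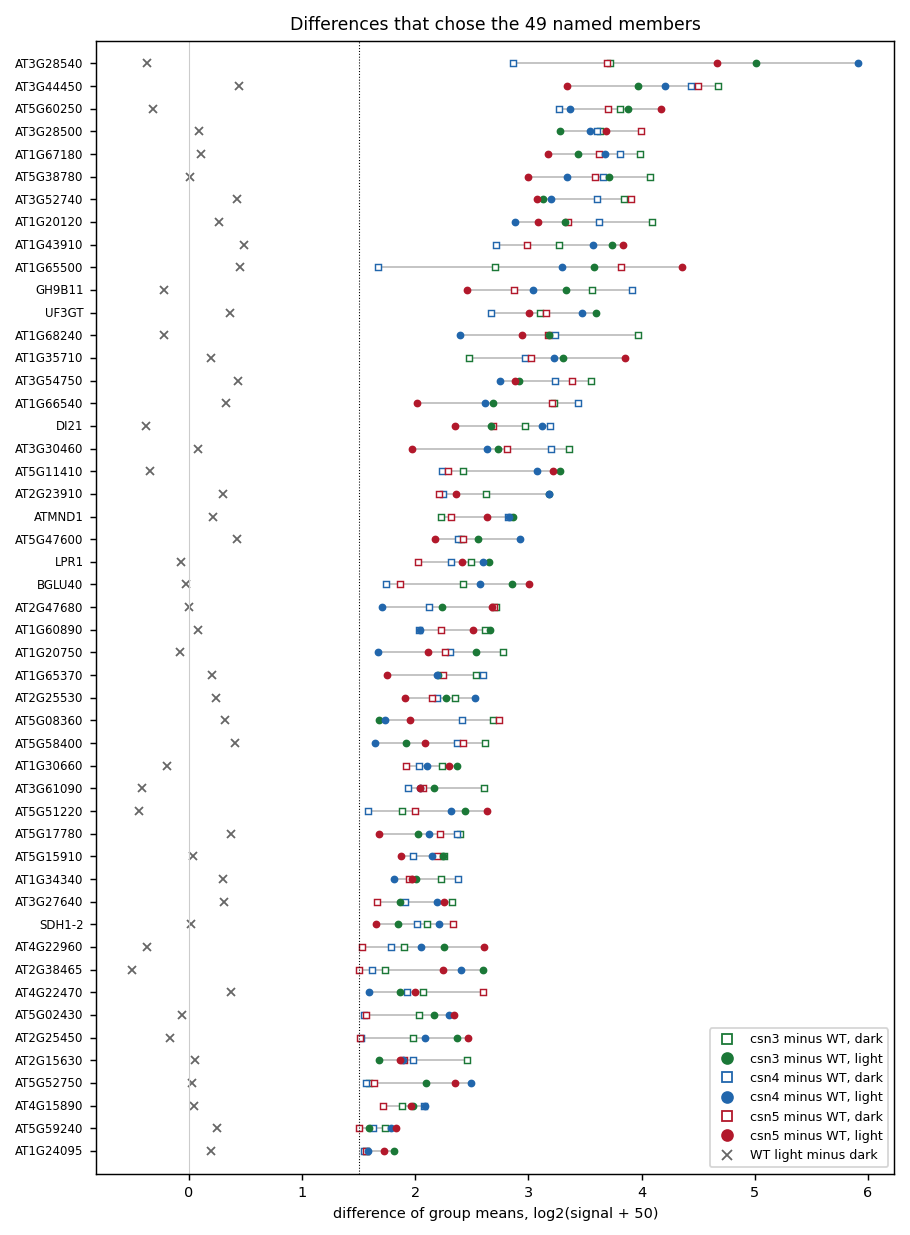
The 49 named members in order of their mean difference, with the difference of each mutant's group mean from WT (log2(signal + 50); open squares for darkness, filled circles for light, 3 arrays per group) and WT light minus dark (crosses). The dotted line marks the limit of 1.5, which all members pass by the rule; AT3G28540 and AT1G65500 show widely spread points, and AT1G24095 a narrow cluster at the limit.

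Several features of the arrays bear on all results. The 3'/5' signal ratio of the actin control, a measure of RNA integrity, was 5.17 to 48.9 in the 18 mutant arrays and 2.26 to 4.79 in the WT arrays, except for WT dark array 2 at 21.3. Among the mutant arrays, csn4 light array 2 (48.9), csn3 dark array 1 (27.5) and csn4 dark array 1 (16.1) had the highest ratios. With the log ratio as a covariate, the 6 median differences of the members from WT were 2.13 to 2.41. Since the members were chosen on these same arrays, that range is a description, and the ratio's part in their differences from WT was not tested. The 6 arrays of csn4 light and WT light carry sample identifiers from a separate, earlier range than the other 18, which no label calls a batch. The description of the WT light arrays reads CSN4-1 wild type, a wording that those of the WT dark arrays lack. For csn4 and WT, light and that range cannot be told apart. The same holds for genotype and range in csn3 or csn5 minus WT in light, which the rule used, and in csn4 against csn3 or csn5 in light. Light minus dark within csn3 and within csn5, csn3 against csn5 in light and all comparisons in darkness lie within the later range. The CSN5B probe set read 1753 ± 165 (SD, n = 3) in csn5 dark and 140 ± 32.1 in WT dark, and 805 ± 134 against 118 ± 6.82 in light, so it was higher and not lower in the line labelled csn5. Whether that probe set lies outside the altered part of the gene was not tested, and arrays of that line are called csn5-labelled below. No probe set was named for CSN3, CSN4 or CSN5A.

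**Figure D2:**
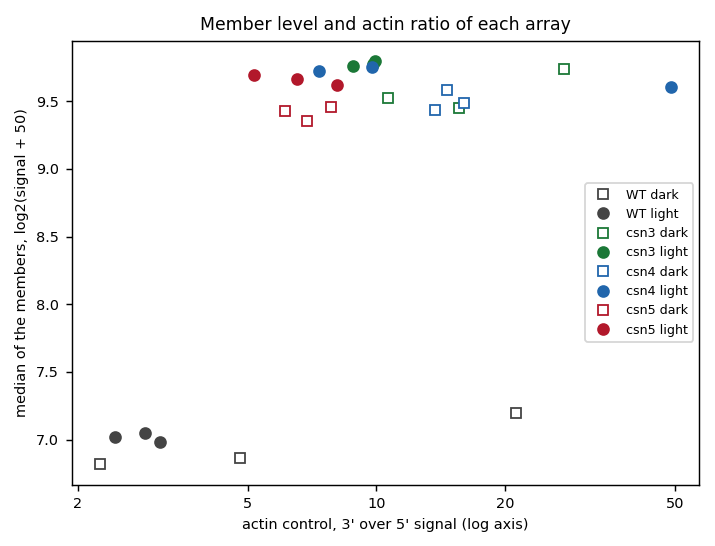
The median level of the 120 members in each of the 24 arrays (vertical axis, log2(signal + 50)) against the actin 3'/5' ratio (horizontal log axis). The 6 WT arrays lie between 6.82 and 7.19 and the 18 mutant arrays between 9.35 and 9.80, a gap that the choice of members fixes; WT dark array 2 is the WT point with a ratio of 21.3.

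Among the named members, the first group by role is light signalling. AT3G44450 and AT3G52740 are BIC2 and BIC1, small proteins that bind cryptochromes and block their activation by blue light, and AT1G68240 encodes a basic helix-loop-helix transcription factor. AT3G44450 read 13.0, 10.3 and 56.2 in WT darkness and 55.2, 54.1 and 41.9 in WT light. In darkness, AT3G44450 measured 1749, 1832 and 1947 (csn3), 1797, 1454 and 1420.4 (csn4), and 1534, 1642 and 1692 (csn5-labelled). In light, AT3G44450 measured 1481, 1589 and 1503 (csn3), 1421, 2049.5 and 2001 (csn4), and 1018, 991 and 886 (csn5-labelled). All mutant arrays stood far above WT, and the 3 csn5-labelled light arrays were the lowest of the 18. AT3G52740, the gene of BIC1, read 18, 10.9 and 9.3 in WT darkness and 8.0, 30.3 and 77.4 in WT light. In darkness, AT3G52740 measured 639, 1018 and 932 (csn3), 560.1, 693 and 935 (csn4), and 947, 862 and 861 (csn5-labelled). In light, AT3G52740 measured 706, 815 and 561 (csn3), 494, 1026 and 740.0 (csn4), and 544, 591 and 879 (csn5-labelled). The mutant groups overlapped one another throughout, in both conditions. In both genes the 6 WT arrays read under 100.

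The next named members belong to DNA and chromosome maintenance. AT1G67180 encodes a protein with a RING finger and a BRCT domain, the latter a module common in DNA repair proteins. Its WT signals were 39.9, 91.2 and 5.0 in darkness and 56.9, 24.5 and 59.8 in light. In darkness, AT1G67180 measured 2488, 1169.9 and 848 (csn3), 1287, 1089 and 1226 (csn4), and 785, 1307 and 1096 (csn5-labelled). In light, AT1G67180 measured 1114, 752 and 1133 (csn3), 1660.5, 1204 and 799 (csn4), and 853, 824 and 768 (csn5-labelled). The mutant lines overlapped in both conditions, csn3 dark array 1 was the highest of all, and the highest WT reading was in WT dark array 2. ATMND1, needed for strand exchange in meiosis, had a mean difference of 2.61. AT1G20750, a RAD3-like DNA helicase, stood at 2.28, and AT1G30660, a primase of the TWINKY type found in organelles of plants, at 2.16. AT4G15890, a subunit of condensin II, read 115 to 244 in WT and 512 to 892 in the mutants, a mean difference of 1.95. None of these 5 genes was called between any mutant groups.

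AT5G60250 heads the genes for RING, TRAF-like and chaperone proteins; RING fingers are the part of many ubiquitin ligases that receives the ubiquitin-carrying enzyme. The 3 WT arrays gave 57.9, 143 and 81.6 in darkness and 47.0, 81.1 and 62.0 in light. In darkness, AT5G60250 measured 1767, 1939.8 and 2029 (csn3), 1461, 1387 and 1079 (csn4), and 1569.8, 1855 and 1912 (csn5-labelled). In light, AT5G60250 measured 1589.6, 1518 and 1724 (csn3), 1199.6, 841 and 1351 (csn4), and 1784, 1793 and 2410.5 (csn5-labelled). The csn4 arrays were the lowest of the mutants in both conditions, without overlap with the other 2 lines, though no mutant pair was called. AT3G30460, a second RING protein, had a mean difference of 2.78. AT5G47600, of the HSP20-like chaperone family, had 2.47, and AT1G65370, a TRAF-like protein, had 2.26 with WT signals of 306 to 577.

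Genes of protein synthesis and RNA handling included AT3G28500, for an acidic P2 protein of the large ribosomal subunit's stalk. AT3G28500 read 53.4, 152 and 35.1 in WT darkness and 76.3, 83.2 and 77.3 in WT light. In darkness, AT3G28500 measured 1015, 2232 and 1341 (csn3), 1339, 1570.0 and 1367 (csn4), and 1659, 1972 and 2043 (csn5-labelled). In light, AT3G28500 measured 1159, 1141 and 1307 (csn3), 1363, 1945 and 1161 (csn4), and 1442, 1683 and 1728 (csn5-labelled). No mutant line stood apart in darkness, while in light the 3 csn5-labelled arrays lay above all csn3 arrays, with no call. AT5G59240, a ribosomal protein of the S8e family, lay at the rule's limit with a mean difference of 1.68. AT2G47680, a helicase with a CCCH zinc finger, had 2.36. Of the mitochondrial genes, SDH1-2, a flavoprotein subunit of succinate dehydrogenase, read 4.40 to 54.3 in WT and 169 to 372 in the mutants, a mean difference of 2.03. AT5G51220, a ubiquinol-cytochrome c chaperone family member, had 2.14. AT2G25530, an AFG1-like ATPase, had 2.23, and AT2G15630, a pentatricopeptide repeat protein of the family that processes organelle RNA, had 1.96.

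Enzymes of specialised metabolism made up 6 named members. AT5G38780 belongs to the SABATH methyltransferases, which methylate small acids such as salicylate and jasmonate. AT5G38780 gave 4.7, 42.7 and 43.8 in WT darkness and 43.7, 9.4 and 37.0 in WT light. In darkness, AT5G38780 measured 1661, 1335 and 915 (csn3), 925, 899.9 and 992 (csn4), and 868, 1022 and 793 (csn5-labelled). In light, AT5G38780 measured 1073, 890.3 and 975 (csn3), 802, 855 and 599 (csn4), and 585, 558 and 588 (csn5-labelled). The csn5-labelled light arrays were again the lowest of the 18 mutant arrays. UF3GT, a glycosyltransferase of anthocyanins, had a mean difference of 3.17, AT1G66540, a cytochrome P450, 2.87, and AT2G23910, a reductase-like protein, 2.63. AT5G15910, a protein with a Rossmann fold, had 2.12. AT2G25450, a dioxygenase of glucosinolate side-chain hydroxylation, was already strongly expressed in WT, at 3190 to 4302, and read 9325 to 23256 in the mutants.

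Secreted and cell wall enzymes and hydrolases also gave 6 members. AT1G20120, a lipase of the GDSL family, read 19.5, 10.2 and 5.3 in WT darkness and 29.4, 17.4 and 25.2 in WT light. In darkness, AT1G20120 measured 1766, 800.0 and 693 (csn3), 996, 399 and 875 (csn4), and 508, 756 and 495 (csn5-labelled). In light, AT1G20120 measured 744, 699 and 632 (csn3), 316, 704 and 537 (csn4), and 619, 688 and 446 (csn5-labelled). The mutant lines overlapped, with csn3 dark array 1 the highest. GH9B11, an endoglucanase family member, had a mean difference of 3.20 and BGLU40, a beta-glucosidase, 2.41. AT5G58400, a class III peroxidase, had 2.18, and the alpha/beta hydrolases AT5G17780 and AT1G34340 had 2.14 and 2.06.

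AT3G28540, an AAA-type ATPase, had the largest mean difference of all named members, 4.31, and also a wide spread between its 6 differences, from 2.87 in csn4 darkness to 5.91 in csn4 light. Its array values are given with the light comparison, together with those of AT1G43910, also an AAA-type ATPase, whose mean difference was 3.35. Among the kinases, AT1G35710, a leucine-rich repeat receptor kinase, had 3.14, AT5G11410, a protein kinase, 2.75, and AT1G60890, of the phosphatidylinositol phosphate kinase family, 2.35. DI21, a gene named for its induction by drought, was abundant in WT at 1988 to 3506 and read 9959 to 31098 in the mutants. The mean mutant signal of DI21 was 7.87 times that of WT in darkness and 7.11 times in light. LPR1, a multicopper oxidase that halts root growth at low phosphate, had a mean difference of 2.41. AT4G22470, of the lipid-transfer family, and AT5G52750, with a heavy-metal domain, had 2.01 and 1.96. The WD40 repeat proteins AT3G27640 and AT5G02430 had 2.03 and 1.99. The 7 named members given no role here ran from 1.63 (AT1G24095) to 3.24 (AT1G65500). They include AT3G54750, which read 349 to 671 in WT and 3716 to 5680 in the mutants, and AT5G08360, AT3G61090, AT4G22960 and AT2G38465, with means of 2.20, 2.14, 2.02 and 2.02.

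**Figure D3:**
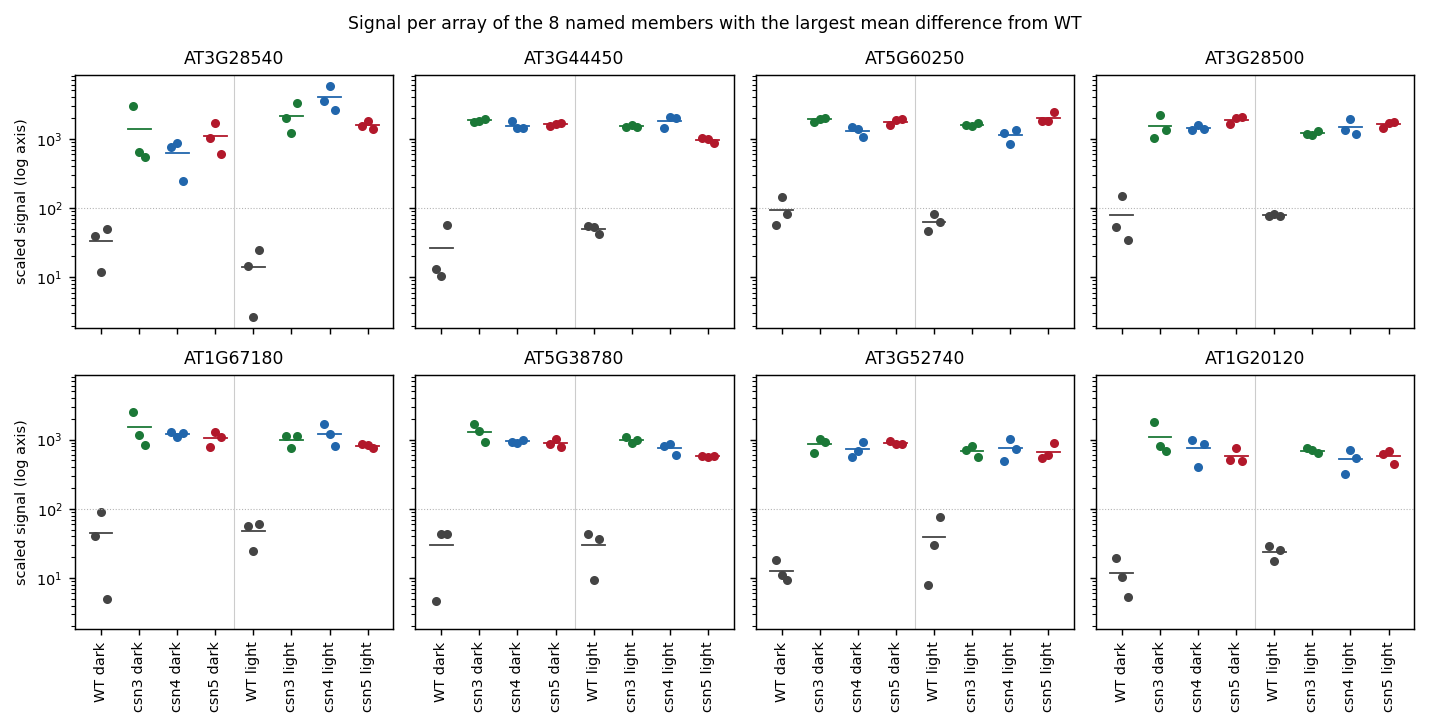
Scaled signal (log axis) in every array for the 8 named members of largest mean difference, 3 arrays per group, with bars at the group means and a dotted line at a signal of 100. The WT arrays of all 8 genes lie at 152 or below and the mutant arrays at 243 or above; AT3G28540 is the gene whose mutant arrays spread most.

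The members of largest difference overall were not named here. The probe set 258321_at read 44.9 to 88.6 in WT and 7282 to 18843 in the mutants, a mean difference of 6.74. For 245306_at the WT range was 119 to 220 and the mutant range 13108 to 51157, with a mean of 6.65. In both, the lowest mutant array lay far above the highest WT array. Neither was called in any comparison among mutant groups.

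The rule set no limit on the mutants' own response to light, and light minus dark within each mutant was tested with limma over all 18751 probe sets. A call needed a Benjamini-Hochberg adjusted p under 0.05 and a difference of at least 1 in size on the log2(signal + 50) scale. In csn3, 9 members were higher and 1 was lower in light, where 0.88% of all tested probe sets were called, 0.549% higher and 0.331% lower. In csn4, 17 were higher and 3 lower, against 3.49%, made up of 2.13% and 1.36%. In csn5-labelled seedlings 13 were higher and 0 lower, against 3.82%, made up of 2.44% and 1.38%. The members' median light minus dark was 0.08, 0.21 and 0.19 in these lines, beside -0.02, -0.05 and 0.02 over all tested probe sets. The count in csn3 rests on single arrays: it was 5 without csn3 dark array 2 and 6 without csn3 light array 1.

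Light independence was thus imposed by the rule in WT and did not extend to all members in the mutants. A call in at least 1 mutant was made for 23 members (19.2%, against 6.5% of all tested probe sets), 20 of them higher and 3 lower in light. At an unadjusted p under 0.05 there were 42, 47 and 54 members in csn3, csn4 and csn5-labelled seedlings. All tested probe sets were not counted at that limit, so whether these numbers exceed the general share is not known. Of the 23, 6 were called in all 3 mutants, 8 in 2 and 9 in 1. The 6 called in all 3 were unnamed here, and their differences ran from 1.36 to 4.26. The other 97 members, 40 of them named, were called in none, which does not show that light left them unaltered. The 95% interval of the difference lay within -1 and 1 for 81 members in csn3 (67.5%), 75 in csn4 (62.5%) and 70 in csn5-labelled seedlings (58.3%). Over all tested probe sets the shares were 69.6%, 62.7% and 64.2%.

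**Figure D4:**
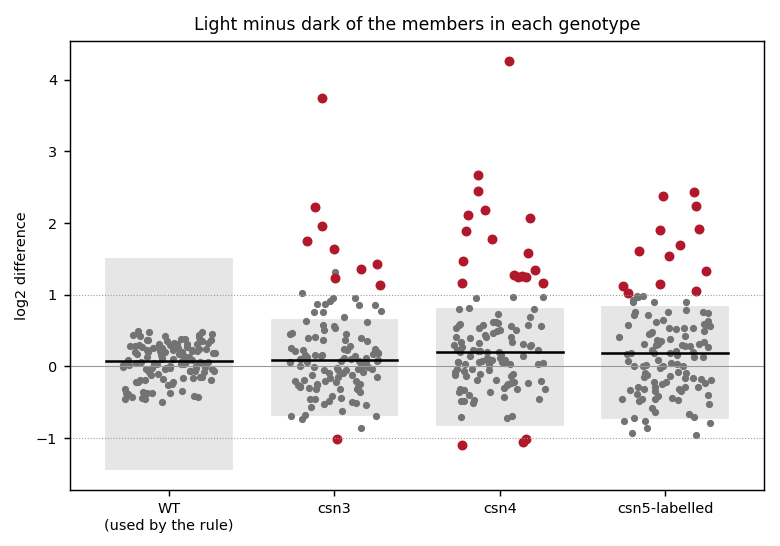
Light minus dark (log2 difference of group means of 3 arrays) of the 120 members in each genotype, with a bar at the members' median, a grey box over the middle 90% of all tested probe sets, and called members in red. In WT the rule confines all points to -0.5 to 0.5; in the mutants 10, 20 and 13 members were called, 39 of these 43 calls being higher in light.

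AT1G43910, the AAA-type ATPase, rose in light in 2 mutants. It read 104, 58.7 and 97.2 in WT darkness and 103, 191 and 134 in WT light. In darkness, AT1G43910 measured 1567, 979.8 and 1274 (csn3), 818, 824 and 870.4 (csn4), and 1438, 923 and 806 (csn5-labelled). In light, AT1G43910 measured 2536, 2496 and 2385 (csn3), 2079.8, 1839 and 2799 (csn4), and 2629.8, 2702 and 2643 (csn5-labelled). Light and dark arrays did not overlap in any mutant. The difference was 1.35 ± 0.21 (SE) in csn4 with an adjusted p of 0.000209 by limma, and 1.33 ± 0.21 in csn5-labelled seedlings with 0.000149. In csn3 it was 0.95 with an adjusted p of 0.0129 by limma, short of the size needed. In WT, where the rule bounded it, the difference was 0.49.

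AT3G28540 rose in light in csn4. WT arrays gave 39.4, 12 and 50.6 in darkness and 14.7, 2.7 and 25.2 in light. In darkness, AT3G28540 measured 3021, 639 and 556 (csn3), 756, 865 and 243 (csn4), and 1029.6, 1689 and 599 (csn5-labelled). In light, AT3G28540 measured 1989.8, 1224 and 3256 (csn3), 3545, 5793 and 2626 (csn4), and 1525, 1816 and 1386 (csn5-labelled). All csn4 light arrays exceeded all csn4 dark arrays, while light and dark overlapped in the other 2 mutants, with csn3 dark array 1 well above its 2 partners. The difference was 2.67 ± 0.47 in csn4 with an adjusted p of 0.000691 by limma, 0.91 in csn3 (0.346) and 0.60 in csn5-labelled seedlings (0.471). The light response was not called as different between csn4 and either other mutant.

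AT1G65500, for which no role is given, showed the same call. Its signals were 255, 372 and 442 in WT darkness and 572, 459 and 458 in WT light. In darkness, AT1G65500 measured 1531, 1894 and 5710.2 (csn3), 1515, 1992 and 594 (csn4), and 5788, 5758 and 5229 (csn5-labelled). In light, AT1G65500 measured 7815, 6141 and 5607 (csn3), 7385, 3318 and 6067 (csn4), and 11384, 11219 and 10799 (csn5-labelled). Light lay above darkness without overlap in csn4 and in csn5-labelled seedlings, and 1 csn3 dark array overlapped the csn3 light arrays. It rose by 2.07 ± 0.36 in csn4, with an adjusted p of 0.000684 by limma. The difference was 1.32 in csn3 (adjusted p 0.0545) and 0.99 in csn5-labelled seedlings (0.0788), both not called by limma. In darkness csn4 was lower than csn5-labelled by 2.15 ± 0.36 on the log2 scale, with an adjusted p of 0.00167 by limma, and these groups did not overlap.

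Of the 6 members in specialised metabolism, UF3GT and AT2G23910 were called higher in light in csn4 only. In csn3 their light arrays also lay above their dark arrays, without a call. For neither gene was the light response called as different between csn4 and another mutant. The other 4 were not called in any mutant. UF3GT, which adds a sugar to anthocyanins, read 7.6, 10.2 and 17.8 in WT darkness and 36.9, 24.2 and 27.9 in WT light. In darkness, UF3GT measured 319, 475 and 723 (csn3), 324, 393 and 316 (csn4), and 614, 569 and 355 (csn5-labelled). In light, UF3GT measured 1062, 879.7 and 818 (csn3), 760.1, 829.5 and 919 (csn4), and 509.6, 558 and 708 (csn5-labelled). Light lay above darkness without overlap in csn3 and csn4, and overlapped it in csn5-labelled seedlings. The difference was 1.17 ± 0.23 in csn4, with an adjusted p of 0.00171 by limma. AT2G23910 read 41.8, 76 and 75.7 in WT darkness and 79.6, 91.1 and 99.7 in WT light. In darkness, AT2G23910 measured 778, 596 and 583 (csn3), 574, 400.4 and 499 (csn4), and 593, 478 and 373 (csn5-labelled). In light, AT2G23910 measured 1122, 1246 and 1308 (csn3), 1132, 1186 and 1351 (csn4), and 691, 637 and 682 (csn5-labelled). Light lay above darkness without overlap in all 3 mutants, least so in the csn5-labelled line. For AT2G23910 the csn4 difference was 1.24 ± 0.18, with an adjusted p of 0.000138 by limma.

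In csn5-labelled seedlings alone, the beta-glucosidase gene and the receptor kinase gene were called higher in light. For neither gene was the light response called as different between csn5-labelled seedlings and another mutant, so the calls do not show a response particular to that line. BGLU40 read 202, 159 and 191 in WT darkness and 193, 148 and 198 in WT light. In darkness, BGLU40 measured 1592, 1121 and 961 (csn3), 603, 702 and 912 (csn4), and 765, 888 and 750.4 (csn5-labelled). In light, BGLU40 measured 1562, 1403 and 1889 (csn3), 1350.4, 1462 and 1147 (csn4), and 2152, 1775 and 1497 (csn5-labelled). Light exceeded darkness without overlap in csn4 and in the csn5-labelled line. The csn5-labelled difference was 1.11 ± 0.19, with an adjusted p of 0.000339 by limma, and without csn5 light array 1 it was 0.98, under the size needed. AT1G35710 read 16.9, 53.4 and 46.6 in WT darkness and 33.5, 64.6 and 54.5 in WT light. In darkness, AT1G35710 measured 667, 272 and 447 (csn3), 667, 613 and 631 (csn4), and 743, 665 and 589 (csn5-labelled). In light, AT1G35710 measured 1082, 768 and 1003 (csn3), 875, 477 and 1623 (csn4), and 1161, 1529 and 1535 (csn5-labelled). Light and dark arrays of csn4 overlapped, and those of the other 2 mutants did not. The csn5-labelled difference was 1.02 ± 0.29 with an adjusted p of 0.0234 by limma. That call was lost without csn5 dark array 2 or 3 (1.02 and 0.94) and without csn5 light array 2 or 3 (0.96 and 0.96), with adjusted p of 0.0724, 0.104, 0.0813 and 0.0834 by limma.

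The transcription factor gene AT1G68240 and GH9B11 were the named members called lower in light. AT1G68240 read 6.1, 74.6 and 1.7 in WT darkness and 4.5, 5.5 and 25.3 in WT light. In darkness, AT1G68240 measured 1327, 1040.1 and 869 (csn3), 684, 641 and 539.7 (csn4), and 588, 568 and 623 (csn5-labelled). In light, AT1G68240 measured 523, 424 and 575 (csn3), 209.9, 345 and 273 (csn4), and 502, 399 and 368 (csn5-labelled). Light lay below darkness without overlap in all 3 mutants. The difference was -1.01 ± 0.25 in csn3 with an adjusted p of 0.0356 by limma, and -1.06 ± 0.25 in csn4 with 0.00961. The csn3 call was lost without csn3 dark array 1 or 2 and without csn3 light array 1, 2 or 3, at differences of -0.85, -1.02, -1.03, -0.90 and -1.09. The csn4 call was lost without csn4 dark array 1 (-0.99) and without csn4 light array 1 (-0.91).

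GH9B11 read 5.9, 28.2 and 7.2 in WT darkness and 6.3, 3.9 and 2.1 in WT light. In darkness, GH9B11 measured 1078, 638 and 477 (csn3), 877, 645 and 1278 (csn4), and 345, 388 and 513 (csn5-labelled). In light, GH9B11 measured 470.5, 464 and 551 (csn3), 324, 476 and 400.3 (csn4), and 245, 194 and 312 (csn5-labelled). Light lay below darkness without overlap in csn4 and csn5-labelled seedlings, and csn4 dark arrays lay above csn5-labelled dark arrays. The light difference in csn4 was -1.09 ± 0.26, with an adjusted p of 0.0078 by limma. In darkness csn4 exceeded csn5-labelled seedlings by 1.04 ± 0.26, with an adjusted p of 0.0248 by limma. The light call was lost without csn4 dark array 3 (-0.85) and without csn4 light array 1 (-0.96). The dark call was lost without csn4 dark array 3 (0.80) and without csn5 dark array 1 (0.94) or 2 (1.01).

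Calls between mutants were few among the members, as they were among all tested probe sets. In darkness, csn3 minus csn4 had 1 member higher and 1 lower (0.448% of all tested probe sets were called). For csn3 minus csn5-labelled 0 were higher and 1 lower (0.341%), and for csn4 minus csn5-labelled 1 higher and 3 lower (1.97%). In light, csn3 minus csn4 had 0 called by limma (0.0213%). It had 15 members at an unadjusted p under 0.05, a limit at which all tested probe sets were not counted. For csn3 minus csn5-labelled 0 were higher and 1 lower (0.384%), and for csn4 minus csn5-labelled 2 were higher and 1 lower (1.93%). Over the 6 pairs 9 members were called, of which AT1G65500 and GH9B11 were named. The 95% interval of the difference lay within -1 and 1 for 87 to 105 of the 120 members, depending on the pair (72.5% to 87.5%, against 64.6% to 75.7% of all tested probe sets). Counting the light comparisons too, 94 members (78.3%) were called in no comparison among mutant groups, against 90.7% of all tested probe sets. As before, these shares come from unlike signal levels.

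Several of these small counts changed without 1 array. The dark csn3 and csn4 pair gave 1 in place of 2 without any of 16 arrays. Those 16 were all but csn3 dark array 1, the csn4 light arrays, csn5 light array 3 and the WT dark arrays. Dark csn3 and csn5-labelled gave 5 without csn3 dark array 3 and 2 without csn4 dark array 3 or any csn4 light array. Light csn3 and csn5-labelled gave 4 without csn3 dark array 3. It gave 3 without csn4 dark array 2 or csn4 light array 1 or 2. It gave 2 without csn3 dark array 1, csn4 light array 3, WT dark array 2 or 3, or WT light array 2 or 3. Light csn4 and csn5-labelled gave 6 and 10 without csn4 light array 1 and 3, and light csn3 and csn4 gave 1 without csn4 light array 1.

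**Figure D5:**
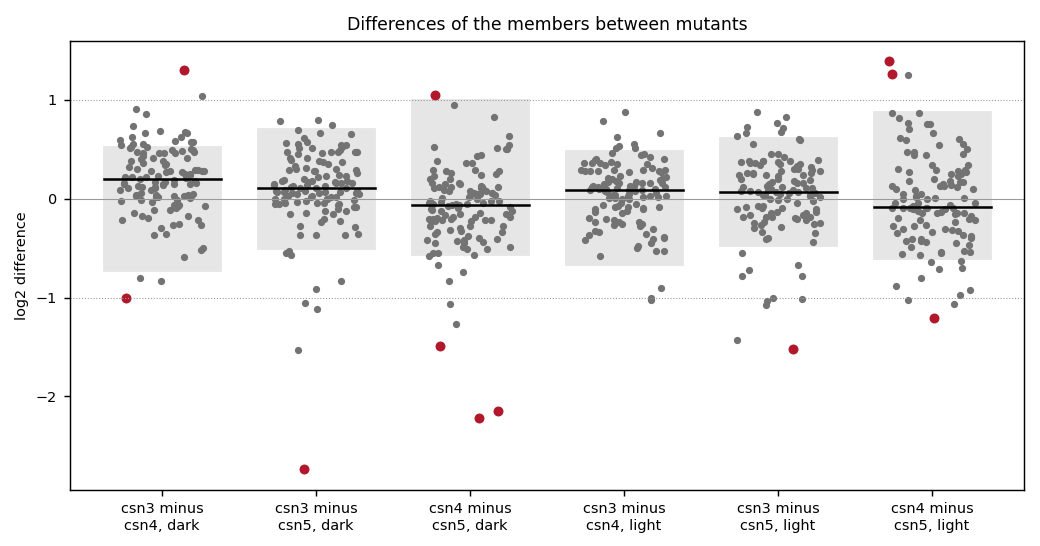
Differences of the 120 members between pairs of mutants (log2 difference of group means of 3 arrays), with a bar at the members' median, a grey box over the middle 90% of all tested probe sets, and called members in red. The medians lie between -0.08 and 0.19, and at most 4 members were called in any pair.

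Whether the light response differed between mutants was tested as a difference of differences. None of the 3 pairs of mutants had a member called by limma. Of all tested probe sets, 0.00533% were called for csn3 against csn4, 0.0267% for csn3 against csn5-labelled and 0.0373% for csn4 against csn5-labelled seedlings. At an unadjusted p under 0.05 there were 6, 15 and 25 members in that order. The share of all tested probe sets at this unadjusted limit was not counted, so these 3 counts have no background. The number of members called for csn4 against csn5-labelled seedlings became 1 without csn4 light array 1. In the differences that involve csn4, line and range of sample identifiers cannot be told apart. The light response of csn4 minus that of WT had 13 members higher and 0 lower. Of all tested probe sets 18.2% were called in it, 8.78% higher and 9.42% lower. An effect of the range of sample identifiers cancels in this comparison only if equal in both genotypes on the log scale used. With a constant added before the logarithm, low WT signals show less of a proportional shift than high mutant signals. Whether the range had such an effect was not tested. The rule bounded the WT term of this comparison and held csn4 minus WT at 1.5 or more in each condition. By itself, the members' count therefore says little about this comparison, and its p-values take no account of the choice of members. The named members called in it were AT3G28540, at 3.05 ± 0.66 with an adjusted p of 0.000941 by limma, and AT1G65500, at 1.62 ± 0.51 with 0.0203. The call of AT1G65500 was lost without csn4 dark array 3 (1.13), csn4 light array 1 (1.39) or WT dark array 3 (1.47).

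By locus name, the 49 named members fell on chromosomes 1 to 5 as 15, 8, 8, 5 and 13, beside 25.9%, 15.2%, 20.1%, 14.6% and 23.1% of the named tested probe sets. A few were close together in the gene order of assembly TAIR10.1. AT3G28500 and AT3G28540 had 3 genes between them, AT4G15890 and DI21 1 gene, AT2G25450 and AT2G25530 8 genes, and AT1G65370 and AT1G65500 15 genes.

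Genes with roles near those of the members were taken from lists, none of whose genes is a member. Of 5 flavonoid genes tested, 4 were higher in each mutant in darkness, and 4, 4 and 3 in light, and none was lower. These 5 include AT4G14090, which met the rule and was left out by name. The rule therefore set its differences from WT in advance, and its part in these counts carries no test. DFR and UGT78D2, which did not meet the limit on WT, were higher by 2.69 to 2.95 and by 3.56 to 3.80 in darkness. The list's median was 2.33, 1.70 and 2.38 in darkness and 2.65, 2.09 and 2.00 in light, beside medians of all tested probe sets between 0.07 and 0.24. In darkness the medians in csn3 and in csn5-labelled seedlings are the values of AT4G14090 itself. Of 5 genes of mitochondrial stress, 1, 3 and 1 were higher in darkness in csn3, csn4 and csn5-labelled seedlings and 4, 5 and 4 in light, with medians of 0.19, 1.04, 0.64, 1.55, 1.67 and 1.69. Of the DNA damage list only ATLIG4, the ligase of end joining, was tested, and it was called in light alone, at 1.59 in csn4 and 1.10 in csn5-labelled seedlings. Among signalosome and cullin genes CUL4, the scaffold of DDB1-type ligases, was called in no mutant, at 0.02 to 0.62, and CSN5B in the csn5-labelled line only. Across all tested probe sets 26.2%, 28.6% and 26% were called in darkness and 20.9%, 24.1% and 21.3% in light, in the order csn3, csn4, csn5-labelled.

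Sums of tissue markers were also compared by genotype. All mutant arrays lay apart from WT in both conditions for root markers, and in light alone for green tissue and seed markers. The summed signal of 7 green tissue markers was 21271 to 26558 in WT darkness and 105081 to 114809 in WT light. In the mutants it was 25635 to 48689 in darkness and 28970 to 48080 in light. The sum of 5 root markers was 24666 to 27348 in WT darkness and 17451 to 18219 in WT light, and 4699 to 8953 over the 18 mutant arrays. Up to 3 of these 5 lay under a signal of 100 in a mutant array, and up to 1 in a WT array. The 3 seed markers were AT3G01570, LEA18 and ICL, the last an enzyme of reserve breakdown and not of seed maturation. In light the mutants exceeded WT by 2.76 to 3.46 for ICL and 1.55 to 2.70 for LEA18. For AT3G01570 the difference was 0.02 to 0.59 and was not called. The sum of the 3 seed markers was 11818 to 12899 in WT darkness and 476 to 827 in WT light. In the mutants it was 5925 to 14373 in darkness and 3868 to 7102 in light. No green tissue marker was under 100 in any array. Their part in the members' differences was not tested, and in whole seedlings fewer cells of a type and less RNA per cell cannot be told apart.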

How the data were processed

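Per the submitters' processing notes the authors made the deposited intensities, linear values with 1 per probe set and array, with MAS5 from ATH1 arrays. The MAS5 version and settings are not given in the sources used here. All 24 arrays were used, grouped by genotype and light from the labels. Signals were rescaled to give every array a 2% trimmed mean of 500, which the deposited values already met closely, and log2(signal + 50) was analysed. Probe sets reaching a signal of 100 in 3 or more arrays were tested with limma 3.58.1 in R 4.3.3 (1 mean per group, eBayes with an intensity trend), and p-values were adjusted by Benjamini-Hochberg over the 18751 probe sets of a contrast. The script was tested on simulated data. Precision is limited by 3 arrays per group, and errors are SE of that fit or SD.

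The labels give number 1 to 2 csn3 dark arrays, so numbers within csn3 dark follow the order of the samples. In 0 of 21 pairs of groups did all same-numbered arrays deviate together (correlation over 0.1), so numbers were not taken to pair arrays.

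The members, the 12 lists of related genes and tissue markers (218 genes, of which 52 had a probe set naming them alone and 51 were tested) and the tests were chosen with earlier results of these data known, and roles were assigned from general knowledge after values were seen. The named-gene rule took every member listed with 1 gene. Array values are given for the 8 of largest mean difference and for each called in a comparison among mutants. Names came from the platform table, with current symbols and gene order from the RefSeq genes of TAIR10.1. Alternatives covered scaling, quantile normalization, the added constant, the floor, the groups in the fit, the actin ratio, a replicate block and leaving out arrays.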

Additional observations from a re-analysis of the deposited data

Results flagged for a closer look

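AT3G28540, the AAA-type ATPase gene, is listed because its light response in csn4 differed from that in WT, by 3.05 ± 0.66 on the log2(signal + 50) scale with an adjusted p of 0.000941 by limma (3 arrays per group). Its WT arrays all read under 100, so the WT term of the comparison lies near the lower end of the signal range. The rule that chose the gene set limits on that term and on csn4 minus WT in each condition. The value and its p, which takes no account of that choice, are thus read beside light minus dark within csn4 and say little by themselves.

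AT1G65500, given no role here, is listed for the same reason, with a difference in light response of 1.62 ± 0.51 and an adjusted p of 0.0203 by limma. The rule set the same limits on the parts of this difference for AT1G65500, so its value and p also say little by themselves. Its call was lost without csn4 dark array 3 (1.13, adjusted p 0.0898), csn4 light array 1 (1.39, 0.0673) or WT dark array 3 (1.47, 0.057).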

How the results depend on the processing

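Of 132 counts of members under alternatives other than leaving out 1 array, 119 stayed within 1.5 times the reported count. With 200 added before log2, the rule found 45 probe sets in place of 120, 38 of them shared. With 16 added it found 163 (91 shared), with quantile normalization 86 (81 shared), and without the 4 arrays of highest actin ratio, an alternative chosen after seeing the data, 132 (100 shared). The dark csn3 and csn4 pair gave 1 with 16 added, with 200 added or with no floor, and 0 when only its groups were fitted. The light csn3 and csn5-labelled pair gave 2 with 200 added, with a floor of 200 or with the actin ratio as a covariate, 3 with the replicate block, 6 when only its groups were fitted, and 5 without the 4 arrays of highest actin ratio. The last setting gave 2 in place of 1 for the dark csn3 and csn5-labelled pair. The light csn4 and csn5-labelled pair gave 0 when only its groups were fitted. The replicate block moved no other count of members by over 1.5 times and could not be fitted for comparisons with csn3 darkness. In none of these cases was the cause tested.

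Leaving out each array in turn gave 108 to 135 members by the rule. Light minus dark gave 5 to 13 calls in csn3, 18 to 23 in csn4 and 11 to 17 in csn5-labelled seedlings. The dark pairs gave 1 to 2 (csn3 and csn4), 1 to 5 (csn3 and csn5-labelled) and 3 to 6 (csn4 and csn5-labelled), and the light pairs 0 to 1, 1 to 4 and 2 to 10. Differences in light response gave 0 to 0, 0 to 0 and 0 to 1 between mutants, and 11 to 16 between csn4 and WT.

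No call of a named member changed direction. The calls of AT1G43910, AT2G23910 and AT3G28540, and those of AT1G65500 other than in the comparison with WT, were kept in all 34 alternatives. With 200 added, UF3GT (0.93), BGLU40 (0.99), AT1G35710 (0.89), AT1G68240 (-0.84 in csn3 and -0.79 in csn4) and GH9B11 (-0.89 in light and 0.85 between csn4 and csn5-labelled darkness) fell short of a difference of 1. AT1G35710 did so with quantile normalization (0.99), as did AT1G68240 in csn3 (-0.77) and GH9B11 between mutants (0.81) with the actin ratio as a covariate. AT1G68240 in csn3 lost its call also without the 4 arrays of highest actin ratio (-0.85). With 16 added, the calls of AT1G68240 and of GH9B11 between mutants were lost (adjusted p by limma 0.177 in csn3, 0.0621 in csn4 and 0.0505), and fitting only the groups compared took those of AT1G68240 and GH9B11 in csn4 (0.0523 and 0.0594). Member signals in WT near the bottom of the range limit how exactly their differences are known.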

Other observations

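Further lists of genes, none of which is a member, gave the following counts of calls by limma against WT, in the order csn3, csn4 and csn5-labelled. Beside them, 26.2%, 28.6% and 26% of all tested probe sets were called in darkness and 20.9%, 24.1% and 21.3% in light, in either direction. Of 12 autophagy genes, 1, 1 and 1 were higher and 7, 7 and 7 lower in darkness, with medians of -1.20, -1.27 and -1.36. In light 2, 2 and 2 were higher and 1, 2 and 1 lower, with medians of -0.16, -0.14 and -0.01. ATG8E, a ubiquitin-like protein of the autophagosome, was lower in every mutant in both conditions, at -1.82 to -2.28, while AT3G61960, an ATG1-type kinase, was higher by 1.54 to 2.66. Of 3 senescence genes, 0, 1 and 1 were higher in darkness and all 3 in light in each mutant. WRKY53, a transcription factor of leaf senescence, was higher in light by 2.33 to 2.60. Both salicylate defence genes tested, SAG101 and GRX480, were higher in light in all 3 mutants, by 1.31 to 2.22, and 1, 0 and 0 were in darkness. Of 2 jasmonate and ethylene defence genes 1 was higher in each mutant in darkness, PDF1.2 (a defensin) at 1.10 to 1.79 in csn3, csn4 and csn5-labelled seedlings, and 0 in light. Of 4 xenobiotic and oxidative stress genes 1, 2 and 2 were lower in darkness and 1 in light, where GSTU20, a glutathione transferase, was lower at -3.98 to -4.30.

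Of the tissue markers, 3 of 7 green tissue genes were higher and 1 lower in darkness in each mutant. In light 1, 0 and 0 were higher and 4, 5 and 6 lower. Of 5 root markers 5, 4 and 5 were lower in darkness and 3, 3 and 4 in light. Of 3 seed markers 0, 1 and 0 were lower in darkness, and 2, LEA18 and ICL, were higher in light in each mutant.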
